A study of Drosophila melanogaster with 6 samples.

Results

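The X chromosome of Drosophila melanogaster carried 747 Rbf peaks in flight muscles, and 273 of them shared no base with any Dp peak. These 273 regions, of 3471 Rbf peaks in the whole genome, are described here. They were chosen by measured values, namely the chromosome of an Rbf peak and its lack of overlap with the Dp peak list. They made up 36.5% of the Rbf peaks on X, and Rbf peaks without Dp made up 12.5% of those on 2L, 2R, 3L and 3R, the large autosome arms (331 of 2654). Both shares follow from the choice of regions and carry no test.

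Rbf is a fly retinoblastoma-family protein, which represses transcription and does not recognise DNA sequence by itself. It is known to reach its target genes mainly through E2F transcription factors, which bind DNA together with their partner Dp. A region with Rbf and no Dp in the peak lists is therefore one where the usual DNA-binding partner was not called.

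Binding was mapped by ChIP-seq, in which antibody-bound chromatin is sequenced, in muscles dissected about 96 h after pupa formation, from pharate animals, which are close to eclosion. The samples were 2 ChIPs with mouse antibodies against Rbf (DX3/DX5), 2 with a rabbit antibody against Dp (#212) and 2 inputs without antibody. All groups, inputs included, carried the transgene UAS-mCherry-RNAi at attP2 together with a Mef2 GAL4 driver, which turns it on in muscle. The transgene makes double-stranded RNA against mCherry, a protein that flies lack. Growth at 25 °C is stated for all samples, while the stage label reads 25 °C for the Rbf and input samples and 5 °C for the Dp samples. Each antibody had 1 peak list over both of its samples, so no peak has a replicate error and the read depth is unknown. Intervals below are at 95% and cover counting error over peaks only, and neighbouring peaks are not independent of each other. How many samples of each antibody show a given peak cannot be told from the lists, and peaks were not used as replicates in any test. Positions are in coordinates of build BDGP5, counted from 1.

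Most of the X regions without Dp were very short, and a small number were kilobases long, with little in between. Their median width was 247 bp (interval 231 to 263, quartiles 203 and 303), against 483 bp (461 to 513, quartiles 353 and 687) for the 474 X Rbf peaks that overlapped Dp. Rbf peaks without Dp on the large autosome arms had a median of 299 bp (288 to 314, quartiles 239 and 722). Of the X regions without Dp, 201 were under 300 bp (73.6%, exact interval 68.0 to 78.8), 33 had 300 to 349 bp and 5 had 350 to 499 bp. A further 9 had 500 to 999 bp and 25 had at least 1000 bp. The whole range ran from 95 to 12741 bp, and the 273 regions covered 122 kb, against 328 kb for the 474 with Dp.

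A shorter interval has fewer bases with which to meet a Dp peak, so width and overlap are not independent measures. How much of the width difference this makes was not tested. The Dp peaks on X were themselves broad, with a median of 807 bp, and their 5th percentile was 391 bp. Of the regions without Dp, 236 (86.4%) were narrower than that 5th percentile, against 152 (32.1%) of the X Rbf peaks with Dp.

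**Figure D1:**
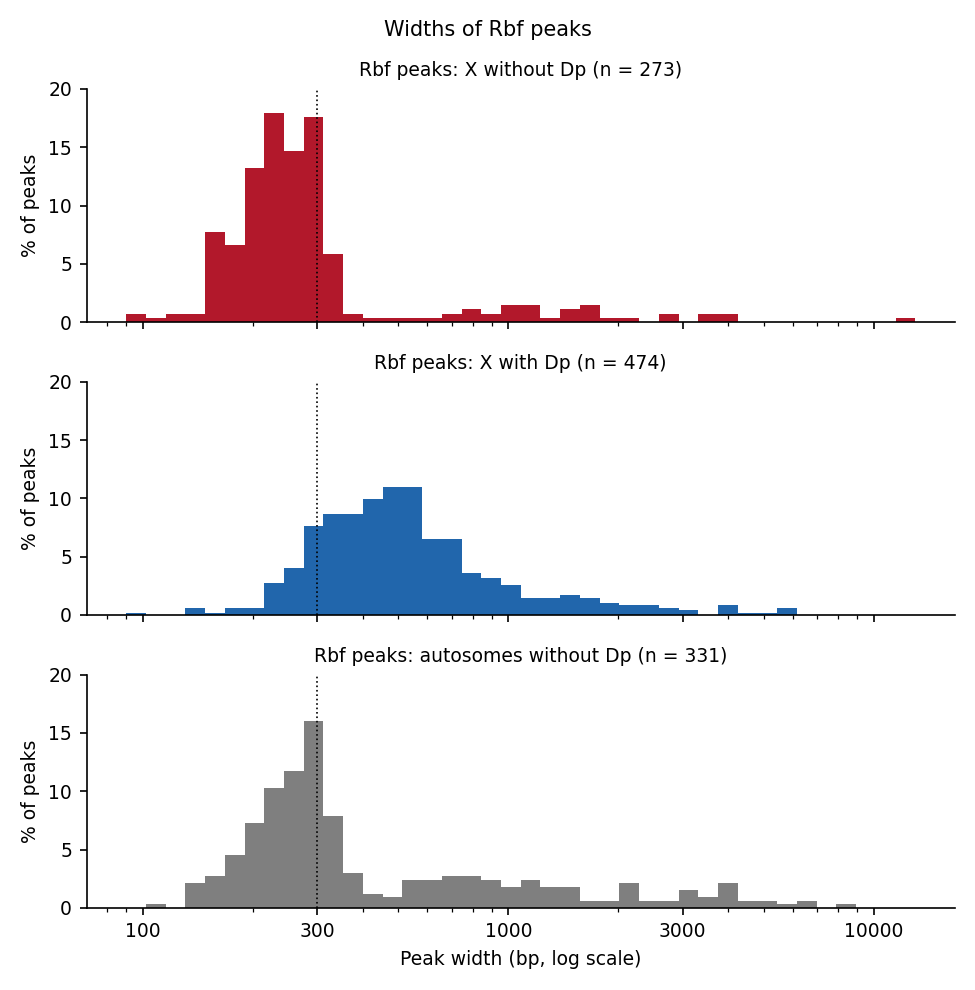
Distribution of Rbf peak widths in bp on a log axis, as a percentage of the peaks in each class, for X without Dp, X with Dp and the large autosome arms without Dp; the dotted line marks 300 bp. The X regions without Dp pile up below 350 bp, with a sparse tail of kilobase-long regions, while X peaks with Dp centre on 483 bp.

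The share of Rbf peaks without Dp fell steeply with width up to 499 bp on X and on the autosome arms. It was higher on X in every width class, and the intervals were apart at 200 to 349 bp. Below 200 bp the share was 88.9% on X (64 of 72, exact interval 79.3 to 95.1) and 87.0% on the autosome arms (40 of 46, 73.7 to 95.1), so the intervals largely coincide. At 200 to 249 bp it was 78.6% on X (69.1 to 86.2) and 50% on the autosome arms (40.5 to 59.5). At 250 to 299 bp the shares were 64.5% on X (53.9 to 74.2) and 40.2% on the autosome arms (32.9 to 47.9). In the class of 300 to 349 bp they were 37.9% on X (27.7 to 49.0) and 19.9% on the autosome arms (14.7 to 26.0). In each of these middle classes the intervals of X and autosomes were apart.

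From 350 to 999 bp hardly any Rbf peak lacked Dp on either set of arms. On X these were 14 regions, with shares of 6.38%, 2.20% and 5.36% in the classes of 350 to 399, 400 to 499 and 500 to 999 bp. The autosome shares in the same classes were 4.81%, 1.86% and 4.01%. Among peaks of at least 1000 bp the share was higher again, at 27.5% on X (25 of 91, 18.6 to 37.8) and 15.1% on the autosome arms (61 of 404, 11.8 to 19.0), and these intervals overlap at their edges.

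**Figure D2:**
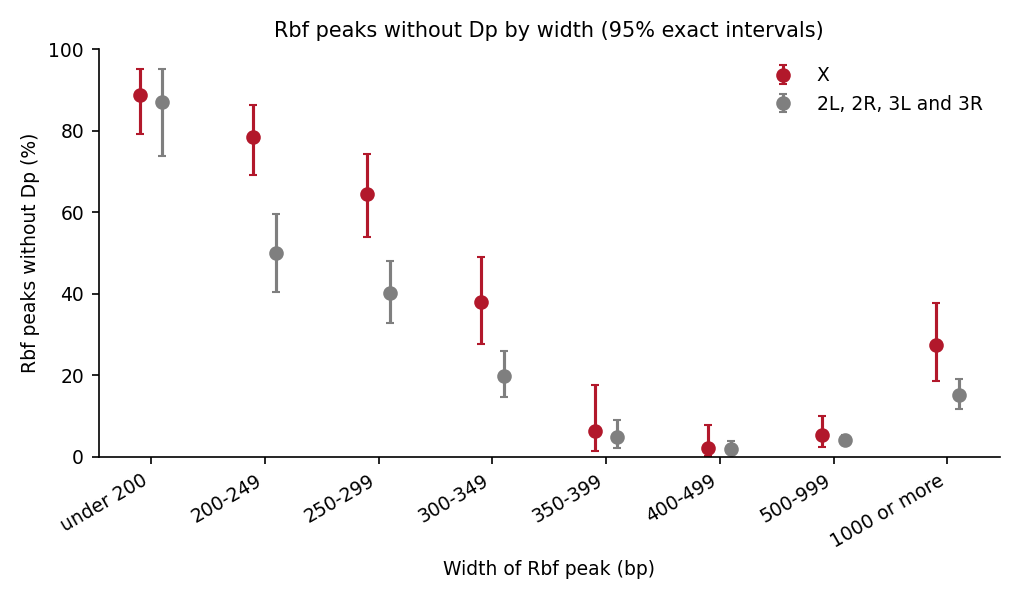
Percentage of Rbf peaks that share no base with a Dp peak, by width class in bp, for X and for 2L, 2R, 3L and 3R, with exact 95% intervals as bars. Points for X lie above those for the autosome arms in every class, with intervals apart from 200 to 349 bp, and both fall below 7% between 350 and 999 bp.

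Scores of the X regions without Dp were low to moderate. The score is the authors' own value for each peak, used here to rank and group peaks within each list. For Rbf peaks it started at 50.1 on X. The median was 110.58 (97.11 to 121.82) for X regions without Dp, against 167 (148 to 187) for X Rbf peaks with Dp and 94.86 (86.42 to 103) for autosome Rbf peaks without Dp. Scores of 300 or more belonged to 22 of the 273 (8.06%) and to 128 of the 474 with Dp (27.0%).

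Within the narrow class the regions without Dp had the higher median score, a difference that was not tested. Among peaks under 300 bp the median score was 100.47 (88.26 to 115) without Dp on X, against 78.5 (63.93 to 99.11) for the 62 with Dp, and the intervals overlap. A score of at least 100 was reached by 103 of the 201 narrow regions without Dp (51.2%, 44.1 to 58.3) and by 22 of the 62 narrow peaks with Dp (35.5%, 23.7 to 48.7). Of peaks of at least 300 bp, the 72 without Dp had a median of 134 (100.48 to 169) and the 412 with Dp had 185 (164 to 203).

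Score and width were hardly related among the narrow X regions without Dp. Spearman's rho between width and score was 0.012 over the 201 narrow regions, against 0.176 over the 62 X Rbf peaks with Dp of the same width range. The value over the 474 X Rbf peaks with Dp of all widths was 0.386. Over all 273 regions it was 0.152, a value that includes the long, high-scoring regions. These coefficients describe peaks of the same 2 Rbf samples, whose width and score come from the same reads.

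**Figure D3:**
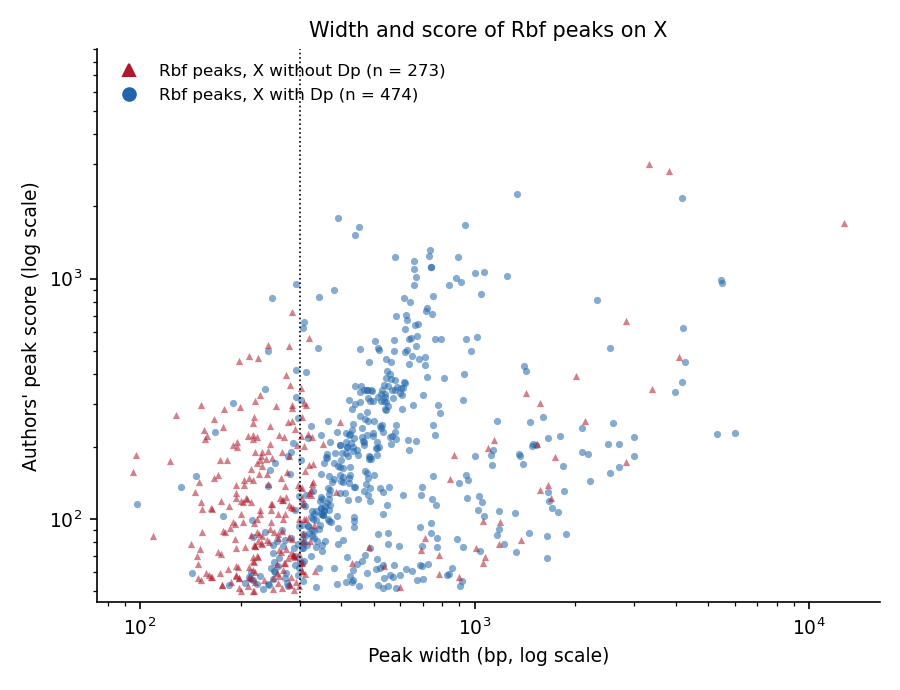
Width in bp and authors' score of every Rbf peak on X, both on log axes, with triangles for the 273 regions without Dp and circles for the 474 with Dp; the dotted line marks 300 bp. Circles form a rising band between about 300 and 1000 bp, and the triangles stand as an upright column left of it plus a few kilobase-long regions.

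The shares of narrow peaks without Dp on X and on the autosome arms were apart for scores under 100, and their intervals overlapped in each higher score class. Among narrow Rbf peaks scoring 50 to 100, 71.0% lacked Dp on X (98 of 138, 62.7 to 78.4) and 38.9% on the autosome arms (93 of 239, 32.7 to 45.4). At scores of 100 to 200 the shares were 84.4% on X (65 of 77) and 81.5% on the autosome arms (53 of 65), and at 200 to 400 they were 84.2% (32 of 38) on X and 87.0% (20 of 23) on the autosome arms. Above 400 there were few narrow peaks, of which 60% lacked Dp on X (6 of 10, 26.2 to 87.8) and 14.3% on the autosome arms (1 of 7, 0.361 to 57.9). The difference between score classes was not tested.

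Per length of chromosome, narrow regions without Dp were denser on X than on every large autosome arm. X had 8.97 per Mb of the span that the lists reach (7.77 to 10.3), against 1.73 per Mb (1.48 to 2.01) over the autosome arms. The highest single autosome arm was 3R with 2.58 per Mb (2.02 to 3.25), and 2L, 2R and 3L lay between 1.35 and 1.42 per Mb. Narrow Rbf peaks as such, with or without Dp, were also dense on X. X had 72 under 200 bp, 98 of 200 to 249 bp and 93 of 250 to 299 bp over 22.41 Mb. The autosome arms had 46, 114 and 174 in these classes over 96.54 Mb. Regions of 300 bp or more without Dp stood at 3.21 per Mb on X (2.51 to 4.05) and at 1.70 per Mb on the autosome arms (1.45 to 1.98), with 2L close to X at 2.65 (2.03 to 3.40). Densities were also taken without the 2 Mb at the centromere side of each listed span. For narrow regions they were 9.26 on X and 1.65 on the autosome arms. For regions of 300 bp or more they were 1.96 on X (1.4 to 2.67) and 0.666 on the autosome arms (0.507 to 0.860).

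Along X the narrow regions were spread out, and most of those of at least 1000 bp lay near the centromere-side end of the listed span. The listed span was cut into bins of 1 Mb counted from its centromere-side end at 22409700. This end is the largest listed peak end on X and not the centromere itself. The bin called next to the centromere is the one at this end. Narrow regions without Dp occurred in all 22 full bins, with 3 to 15 per bin and a median of 9. Only 3 of the 201 fell in the bin next to the centromere, and 12 (5.97%, 3.12 to 10.2) in the last 2 Mb. Of the 72 regions of 300 bp or more, 31 lay in that bin next to the centromere, and no other full bin had more than 5. In the last 2 Mb lay 4 of the 38 regions of 300 to 499 bp (10.5%, 2.94 to 24.8), with an interval that overlaps that of the narrow ones, and 20 of the 25 of at least 1000 bp (80%, 59.3 to 93.2). In all, 44 of the 273 regions (16.1%, 11.96 to 21.0) lay in the last 2 Mb, against 65 of the 474 Rbf peaks with Dp (13.7%, 10.7 to 17.1). Of the regions of 300 bp or more without Dp, 40 of 72 on X lay outside those 2 Mb. On the autosome arms 59 of 164 lay outside the 2 Mb at the centromere side of each listed span, so such crowding was not particular to X. On 3R alone, 12 of 13 lay outside.

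Outside the bin next to the centromere, the number of regions without Dp in a bin bore little relation to the number of Rbf peaks with Dp in it. Over the 22 full bins Spearman's rho was 0.177 against Rbf peaks with Dp and 0.196 against all Dp peaks. Without the bin next to the centromere, these values were 0.060 and 0.074 over 21 bins. Pearson's r was 0.479 and 0.588 over the 22 bins, and 0.042 and 0.052 without that bin. Rbf peaks with Dp reached 48 in the bin next to the centromere, where 34 Rbf peaks lacked Dp. They also reached 48 in the bin 12 to 13 Mb from the centromere-side end, where 11 lacked Dp. In the bin 6 to 7 Mb from that end, 15 Rbf peaks lacked Dp and 8 had it. The share of Rbf peaks without Dp was accordingly 18.6% at 12 to 13 Mb, the lowest on X, and 65.2% at 6 to 7 Mb, the highest.

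**Figure D4:**
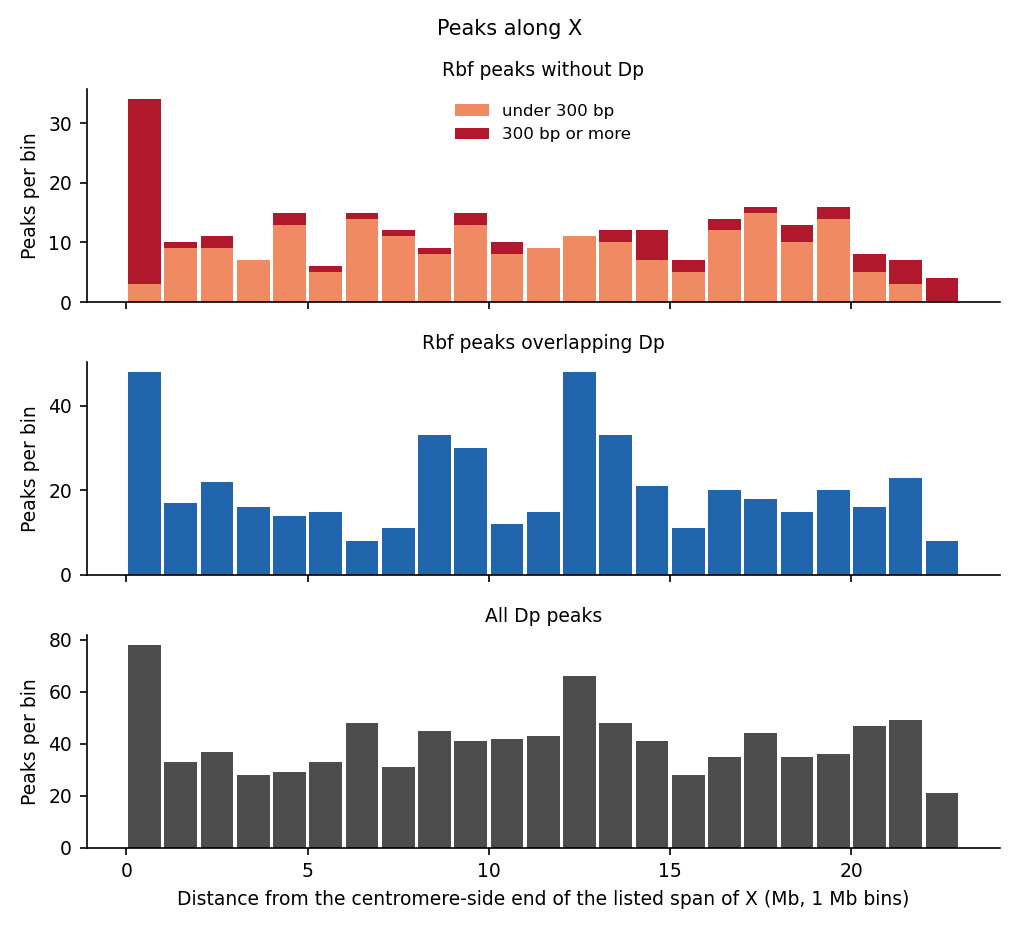
Number of peaks per 1 Mb bin of X, by distance in Mb from the centromere-side end of the listed span: Rbf peaks without Dp split at 300 bp, Rbf peaks overlapping Dp, and all Dp peaks. Narrow regions without Dp run along the whole listed span at 3 to 15 per full bin, and 31 of the 72 longer ones stand in the bin at the centromere-side end. The outermost bin is shorter than 1 Mb.

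The long regions near the centromere-side end sat in a single stretch of 296 kb at 21541487 to 21837279, a place picked out once its values were known. It held 30 regions without Dp, all of 300 bp or more, and thereby 41.7% of all 72 such regions on X. Their median width was 1122 bp, and together they covered 43.9 kb. The same stretch was not empty of Dp: it held 31 Dp peaks covering 89.2 kb, and 28 Rbf peaks that overlapped Dp, with a median width of 761 bp. Median scores in it were 127 without Dp and 124 with Dp.

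Of the 25 regions of at least 1000 bp on X, 20 lay in this stretch, 3 at the distal tip and 2 at 1251865 to 1262022. The longest run of regions without Dp, joined at gaps of at most 5 kb, had 10 members at 21602871 to 21619926. Its members were 600 to 3394 bp wide and scored 52.34 to 664.49, with 107 bp between its second member, the highest in score at 21604044 to 21606890, and the next. The widest member of the run was at 21611631 to 21615024 (3394 bp, score 346.77). Inside the run lay a pair of regions only 1 bp apart, at 21607634 to 21608346 and 21608348 to 21609041, and no Dp peak. The next longest run, given here after its values were known, had 8 members at 21541487 to 21557554, of 537 to 2136 bp, again with no Dp peak inside.

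The highest scores of all belonged to this stretch too. The region at 21763291 to 21766610 scored 2999.68 over 3320 bp, and its neighbour at 21770902 to 21774704 scored 2806.17 over 3803 bp. The nearest Dp peaks lay 2813 bp and 9178 bp away. Another region at 21774724 to 21777557 began 19 bp after that neighbour and scored 172.72, so the 3 formed a run of their own. No X Rbf peak with Dp scored as high as the upper 2, the highest being 2242.

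The distal tip of X was the other place with long regions, and was also picked out after its values were known. All 4 Rbf peaks before the first Dp peak of X, which starts at 56666, are regions without Dp by position alone. They ran at 612 to 1802, 1981 to 2878, 2897 to 15637 and 17242 to 19251, and covered 16.8 kb. The one at 2897 was the widest region of all, with 12741 bp and a score of 1697.3, and it lay 41028 bp from the nearest Dp peak. The scores of the others were 97.51, 57.61 and 394.91. Further in, the second widest region stood at 1257940 to 1262022 (4083 bp, score 470.79), with a companion of 1424 bp at 1251865 to 1253288 that was chosen after its values were known.

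Some narrow regions were among those of highest score. The highest, at 18790246 to 18790529, was 284 bp wide and scored 724.82, with the nearest Dp peak 2275 bp away. A region of 321 bp at 6627608 to 6627928 scored 563.83, and the nearest Dp peak, of score 81.06, was 5957 bp away. The region at 8862825 to 8863065 (241 bp) scored 531.11 with 12497 bp to Dp, and that at 4593477 to 4593755 (279 bp) scored 524.02 with 2094 bp to Dp. The one at 21320275 to 21320485 (211 bp) scored 477.61 and lay 9157 bp from a Dp peak of score 2796.5. Of the 10 regions of highest score, 4 were thus narrower than 300 bp and 1 more was 321 bp wide, and the other 5 were 2847 to 12741 bp wide.

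Distances to Dp were large compared with the widths of the peaks. The nearest Dp peak lay a median of 10064 bp away (8316 to 12127, quartiles 4483 and 22800), measured as the bases between the peaks. For X Rbf peaks with Dp, the nearest Dp peak that they did not overlap was a median of 5924 bp away (4858 to 6527). Autosome Rbf peaks without Dp had a median of 7513 bp to Dp (6263 to 9327). Of those 331 autosome peaks 167 were under 300 bp, against 201 of the 273 X regions, so the 2 medians cover different widths. X and autosome arms were not compared at matched width for this distance. Only 7 of the 273 regions (2.56%) were within 500 bp of a Dp peak, 15 (5.49%) within 1000 bp, and 136 (49.8%) within 10000 bp. Near misses at a Dp edge were therefore rare among the X regions. By width, the medians were 12131 bp (10064 to 15659) under 300 bp and 6653 bp (5190 to 8316) at 300 bp or more. The 38 regions of 300 to 499 bp had 8528.5 bp (5283 to 14081), which overlaps the interval of the narrow ones, and the 25 of at least 1000 bp had 6041 bp (3804 to 7909).

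At the limit between the classes, the regions closest to Dp were 55 bp away at 20957171 to 20957359, 84 bp at 3359680 to 3359988 and 147 bp at 12387291 to 12387461. The next were 280 bp away at 22290791 to 22291124 and 304 bp at 18448901 to 18449079. Just on the other side, the X Rbf peak with the fewest shared bases had 52 at 21343116 to 21343258, and the next had 94 at 15330135 to 15330448. A peak at 9901561 to 9901658 shared 98, its whole width. At the far end, regions at 5116225 to 5116422, 18184802 to 18184988 and 4295287 to 4295530 had 79552, 79356 and 78578 bp to the nearest Dp peak. Those at 17889009 to 17889295 and 20639941 to 20640093 had 70394 and 67683 bp. All 5 farthest regions were under 300 bp wide, and their scores ran from 54.8 to 204.69.

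By the rule of choice, all regions without Dp lie in the gaps between Dp peaks or before the first one, and most lay in the longer gaps. The Dp peaks on X left 938 gaps, of which 170 (18.1%) held at least 1 region, 54 held 2 or more, and the most was 10. Gaps with a region had a median length of 44375 bp (38522 to 52966), against 6062 bp (5007 to 7342) for gaps without one. A longer gap offers more room, and per Mb of gap the count did not climb steadily with length. Gaps of over 29939 bp had 12.1 regions per Mb (187 regions) and gaps of 10218 to 29939 bp had 18.5 per Mb (81 regions). Of those 81, the gaps at 21601808 to 21622933 and 21538233 to 21558299 held 10 and 8. The shorter gaps held 5 regions in all.

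Scores of the Dp peaks next to these regions were near those of all Dp peaks on X, and their widths differed with the width of the region. For regions under 300 bp the nearest Dp peak had a median width of 785 bp (725 to 850). For those of 300 bp or more it was 1735.5 bp (965 to 1842). Over all 273 regions the nearest Dp peak had a median score of 293 (229 to 324) and a median width of 850 bp (780 to 916). The 938 Dp peaks on X had medians of 307 (280 to 342) and 807 bp (774 to 837). An Rbf peak overlapped that nearest Dp peak for 119 of the 273 regions (43.6%, 37.6 to 49.7), against 387 of the 938 Dp peaks on X (41.3%, 38.1 to 44.5).

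Regions under 500 bp were mostly solitary among Rbf peaks, and those of at least 1000 bp stood close to others. The nearest other Rbf peak was a median of 11847 bp away (8870 to 14242) for the 273 regions, against 4936 bp (3490 to 6276) for X Rbf peaks with Dp. Autosome Rbf peaks without Dp had a median of 4309 bp (2722 to 6857). Split by width, the X regions had medians of 14262 bp (11847 to 16679) under 300 bp and 4197 bp (1411 to 5706) at 300 bp or more. Within the wider class, the 38 regions of 300 to 499 bp had a median of 13276 bp (6284 to 18641), and the 25 of at least 1000 bp had 112 bp (83 to 1604). Narrow autosome peaks without Dp resembled the narrow X regions in this, with 15462 bp (12290 to 20635). An Rbf peak within 500 bp was found for 5 of the 201 narrow regions (2.49%, 0.813 to 5.71) and for 23 of the 62 narrow X peaks with Dp (37.1%, 25.2 to 50.3).

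**Figure D5:**
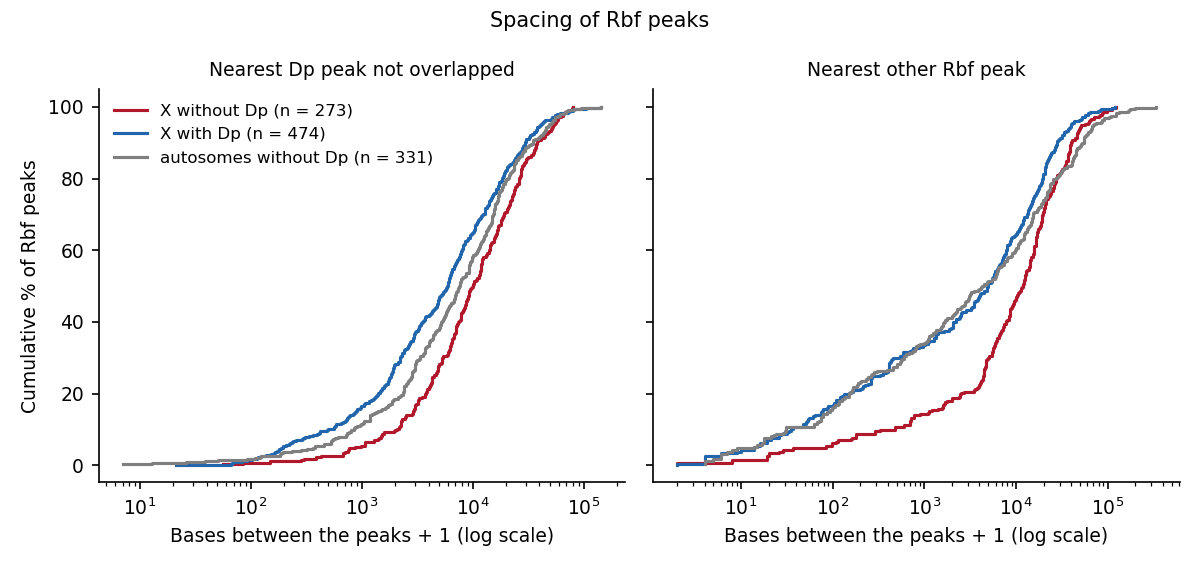
Cumulative percentage of Rbf peaks by the bases to the nearest Dp peak not overlapped and to the nearest other Rbf peak, plus 1, on log axes, for X without Dp, X with Dp and the large autosome arms without Dp. The curve of the X regions without Dp lies to the right of the others over most of the left panel and, up to about 10 kb, in the right panel. The classes differ in peak width, and the curves are not split by it.

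In their order along X, regions without Dp often followed each other. Both neighbouring Rbf peaks also lacked Dp for 85 of the 273 regions (31.1%, 25.7 to 37.0), against 35 of the 474 peaks with Dp (7.38%, 5.20 to 10.1). Neither neighbour lacked Dp for 68 regions (24.9%, 19.9 to 30.5) and for 254 of the peaks with Dp (53.6%, 49.0 to 58.1). Of all X Rbf peaks, 36.5% lacked Dp. A shared stretch without Dp can hold several Rbf peaks, so neighbours are not independent in this count. The count takes in the runs of 10 and 8 members near the centromere-side end and of 4 at the distal tip. It was not split by width. From a region to the next one along X the median distance was 39996.5 bp (34911 to 49450).

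Runs of close regions were few and were of separate kinds. Joined at gaps of at most 5 kb, the 273 regions formed 234 groups, of which 214 were single regions and 20 had 2 or more members (59 regions). Of these 20 runs, 14 were pairs, 3 had 3 members and 1 each had 4, 8 and 10. In the stretch of 296 kb lay 5 runs with 26 regions, none under 300 bp. The run of 4 was the one at the distal tip. A run of 3 shorter regions, 209 to 327 bp wide, stood at 7581993 to 7585109 with scores of 66.24 to 220.26. Close pairs of narrow regions included 3910943 to 3911553 (149 and 176 bp wide), 6354554 to 6355613 (194 and 266 bp) and 7596555 to 7597526 (212 and 283 bp), chosen like the run of 3 after their values were known.

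The share of X Rbf peaks without Dp depended on some definitions of overlap and on the width of the Rbf peaks. It was 71.8% when the shared bases had to make up 50% of both peaks, and 56.8% between 200 bp windows at the midpoints, while requiring more than 500 bp to the nearest Dp peak left it at 35.6%. Among Rbf peaks of at least 300 bp alone it was 14.9%.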

How the data were processed

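The authors deposited 1 peak list per antibody, with 5 columns and no header, whose last column is a score per peak on a scale that the sources used here do not give. Per the submitters' processing notes, the build was BDGP5 and the tools were MACS 1.4.2, Bowtie2 2 and bcl2fastq 1.8.3, with no role stated. The labels do not say whether replicates were pooled before peak calling or whether input was the control. Either choice could change which weak peaks appear in a list. A Dp peak just under the calling threshold counts as absent here. Sequence and gene annotation of BDGP5 were not used here, so no gene, motif or repeat was assigned to a region.

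Rbf peaks on X sharing no base with a Dp peak were selected, and their number was checked with bedtools 2.31.1. Scripts used scipy 1.17.1, pandas 2.3.3, numpy 2.4.6 and matplotlib 3.10.9 under Python 3.11.15, and the distance code was tested on simulated data. Shares have exact Clopper-Pearson intervals, medians have order-statistic intervals and densities have exact Poisson intervals, all at 95%. The largest peak end on each arm in either list stood for its length. No test was run, since the regions were chosen by measured values and no value per replicate was at hand. The regions named are the 10 of highest score, the 5 widest, the 5 nearest to Dp, the 5 farthest, the 3 just outside the rule and the longest run, and any other is said to be chosen after its values were seen. The regions described, the 300 bp limit and the 2 Mb stretch were chosen with earlier results of these data known.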

Additional observations from a re-analysis of the deposited data

How the results depend on the processing

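Of 37 alternative values for 7 results, 21 stayed within the interval of the value reported and 16 did not. The share of X Rbf peaks without Dp, 36.5%, became 71.8% with 50% of each peak shared, 56.8% with 200 bp midpoint windows, 30.7% with Rbf scores of at least 100 and 14.9% with Rbf peaks of at least 300 bp. Restricting to peaks of at least 300 bp moved the median width to 412.5 bp, the median score to 134, and the median distances to 6653 bp for Dp and 4343.5 bp for Rbf, the last among such peaks alone. Restricting to scores of at least 100 moved the median score to 177. The median distance to the nearest Rbf peak, among such peaks alone, became 15898 bp. The share under 300 bp, 73.6%, was 82.5% without the centromere-proximal 2 Mb. With limits of 350 and 250 bp, chosen after the data were seen, it was 85.7% and 51.6%. The share of regions in those 2 Mb, 16.1%, was 44.4% at 300 bp or more, 5.97% under 300 bp and 9.83% with regions at most 5 kb apart counted once, all chosen after the data were seen. No paired analysis was possible because each list holds 1 value per peak over both replicates, and no replicate could be left out. Unknown read depth limits every statement that a Dp peak was absent.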
